A study of Drosophila melanogaster with 2 samples.

Results

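The 10 genes described here pattern the dorsal-ventral axis of the Drosophila melanogaster embryo or the amnioserosa that forms from its dorsal side: dpp, sog, Doc1, Doc2, Doc3, tup, pnr, zen, ths and rho. They were taken by symbol from a fixed list, and all 10 matched among 13945 protein-coding genes on the main chromosome arms. Peaks were counted for a gene when the summit lay in its body or within 10000 bp of it. The peaks come from chromatin immunoprecipitation and sequencing (ChIP-seq) with an anti-GFP antibody in whole embryos aged 0 to 18 h. The strain, gt-GFP, carries an insertion targeting gt and expresses an eGFP fusion of its product Giant. Chromatin was sonicated to 200 to 800 bp, and the labels do not say how many embryos entered a sample. Both libraries are biological replicates of this 1 group, with no untagged or other group, so no difference between groups was tested. Whole embryos of a broad age range were used, so stages and tissues cannot be told apart. Read depth is unknown, because the files list regions and not reads.

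Giant is a basic leucine zipper repressor that acts on the anterior-posterior axis. The dorsal-ventral axis is set by a nuclear gradient of the Dorsal protein, which activates ventral genes and represses dorsal ones. Dorsal cells express dpp, a bone morphogenetic protein (BMP) ligand, and lateral cells express sog, a secreted Chordin-like antagonist that binds BMP ligands and shapes their gradient. BMP signalling acts on the homeobox gene zen, whose late expression needs its highest level, and on the T-box genes Doc1, Doc2 and Doc3, the LIM homeobox gene tup and the GATA gene pnr, which are expressed in broader dorsal domains. These genes act in the amnioserosa and dorsal ectoderm. In lateral cells rho encodes a membrane protease that releases ligands of the epidermal growth factor receptor, and ths encodes a fibroblast growth factor (FGF) that guides the spreading of the mesoderm.

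The sequences around 6 summits are shown because they are the strongest peaks of Doc2, Doc1, dpp, sog, tup and Doc3. Each line holds the summit base and 100 bases on either side, read from the RefSeq Release 6 assembly, which has the coordinates of the authors' dm6 files. Capitals mark every match, on either strand, to a list of motifs or to the letters CAGTG. These letters were added after the sequences were seen, and CAGTGTA came from an earlier look at these data. In the Doc2 sequence capitals mark CAGTGTA and TTACATAA, which differs by 1 base from the Giant site TTACGTAA. In the Doc1, dpp, sog and shared Doc2 and Doc3 sequences they mark the letters CAGTG or their complement CACTG, and in dpp also the Tinman site CACTTGA. The tup sequence has no match.
Doc2 upstream summit, chr3L:9025820-9026020, plus strand: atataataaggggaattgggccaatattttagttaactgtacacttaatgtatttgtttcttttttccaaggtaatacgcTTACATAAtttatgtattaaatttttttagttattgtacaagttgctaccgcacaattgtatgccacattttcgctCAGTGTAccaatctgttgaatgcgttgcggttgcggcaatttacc
Doc1 downstream summit, chr3L:9045366-9045566, plus strand: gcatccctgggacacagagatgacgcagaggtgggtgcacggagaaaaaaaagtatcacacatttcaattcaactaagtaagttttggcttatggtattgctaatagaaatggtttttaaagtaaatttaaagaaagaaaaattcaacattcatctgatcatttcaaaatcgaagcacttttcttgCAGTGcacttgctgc
dpp intronic summit, chr2L:2433536-2433736, plus strand: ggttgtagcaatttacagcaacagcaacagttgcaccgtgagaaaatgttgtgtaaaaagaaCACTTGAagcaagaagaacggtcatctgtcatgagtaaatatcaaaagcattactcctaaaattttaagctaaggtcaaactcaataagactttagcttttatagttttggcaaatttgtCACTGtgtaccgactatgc
sog intronic summit, chrX:15619408-15619608, plus strand: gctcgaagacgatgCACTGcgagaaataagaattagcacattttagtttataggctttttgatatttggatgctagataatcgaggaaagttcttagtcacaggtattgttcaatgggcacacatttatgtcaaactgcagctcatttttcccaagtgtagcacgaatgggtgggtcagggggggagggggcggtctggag
tup downstream summit, chr2L:18857786-18857986, plus strand: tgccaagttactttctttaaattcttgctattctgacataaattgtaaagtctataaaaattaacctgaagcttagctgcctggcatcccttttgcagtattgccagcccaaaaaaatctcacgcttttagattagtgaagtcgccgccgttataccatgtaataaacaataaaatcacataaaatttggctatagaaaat
Doc2 and Doc3 shared summit, chr3L:9011839-9012039, plus strand: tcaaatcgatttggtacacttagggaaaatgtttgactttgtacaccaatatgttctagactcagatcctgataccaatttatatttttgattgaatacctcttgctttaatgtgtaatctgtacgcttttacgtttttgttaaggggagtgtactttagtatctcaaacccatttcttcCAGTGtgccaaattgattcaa

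A thresholded summit lay in the window of 9 of the 10 genes, all but rho. The genes were listed with earlier results of these data known, so this count describes the list and is no test of it. Over all protein-coding genes the same rule found 4866, or 34.9%. The members' windows were longer than most, with a median of 31140 bp against 22166 bp. Among the 1780 genes with a window at least as long as the members' median, 45.8% had a summit. All 5 members in that class had one. Assigning a summit only to the closest transcription start site (TSS), at most 10000 bp away, left 6 members with a peak, namely dpp, ths, tup, Doc2, pnr and sog, against 9.19% of all genes. In the series-level list that the authors call conservative, 8 members had a summit, against 31.1% of genes. Replicate 1's own list gave 6 members, against 27.3% of genes, and replicate 2's own list gave 5, against 24.1%.

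The 9 windows held 14 distinct summits, because Doc2 and Doc3 share 1. There were 3 at ths, 3 at tup, 2 at sog, 2 at Doc2 and 1 each at dpp, Doc1, pnr and zen. Of these summits, 6 lay in a member's body, 4 upstream and 4 downstream. Only 8 of the 14 were nearest to a member's TSS, and 6 were nearest to the TSS of another gene. Their signal ran from 8.96 to 146, with a median of 95.8, against a median of 93.7 over the 1825 thresholded peaks on the main arms. The signal is the authors' own value and is compared only within a list. The strongest member peak ranked 418 of 1825, so none was among the leading sites of the list, whose top signal was 1211.

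**Figure D1:**
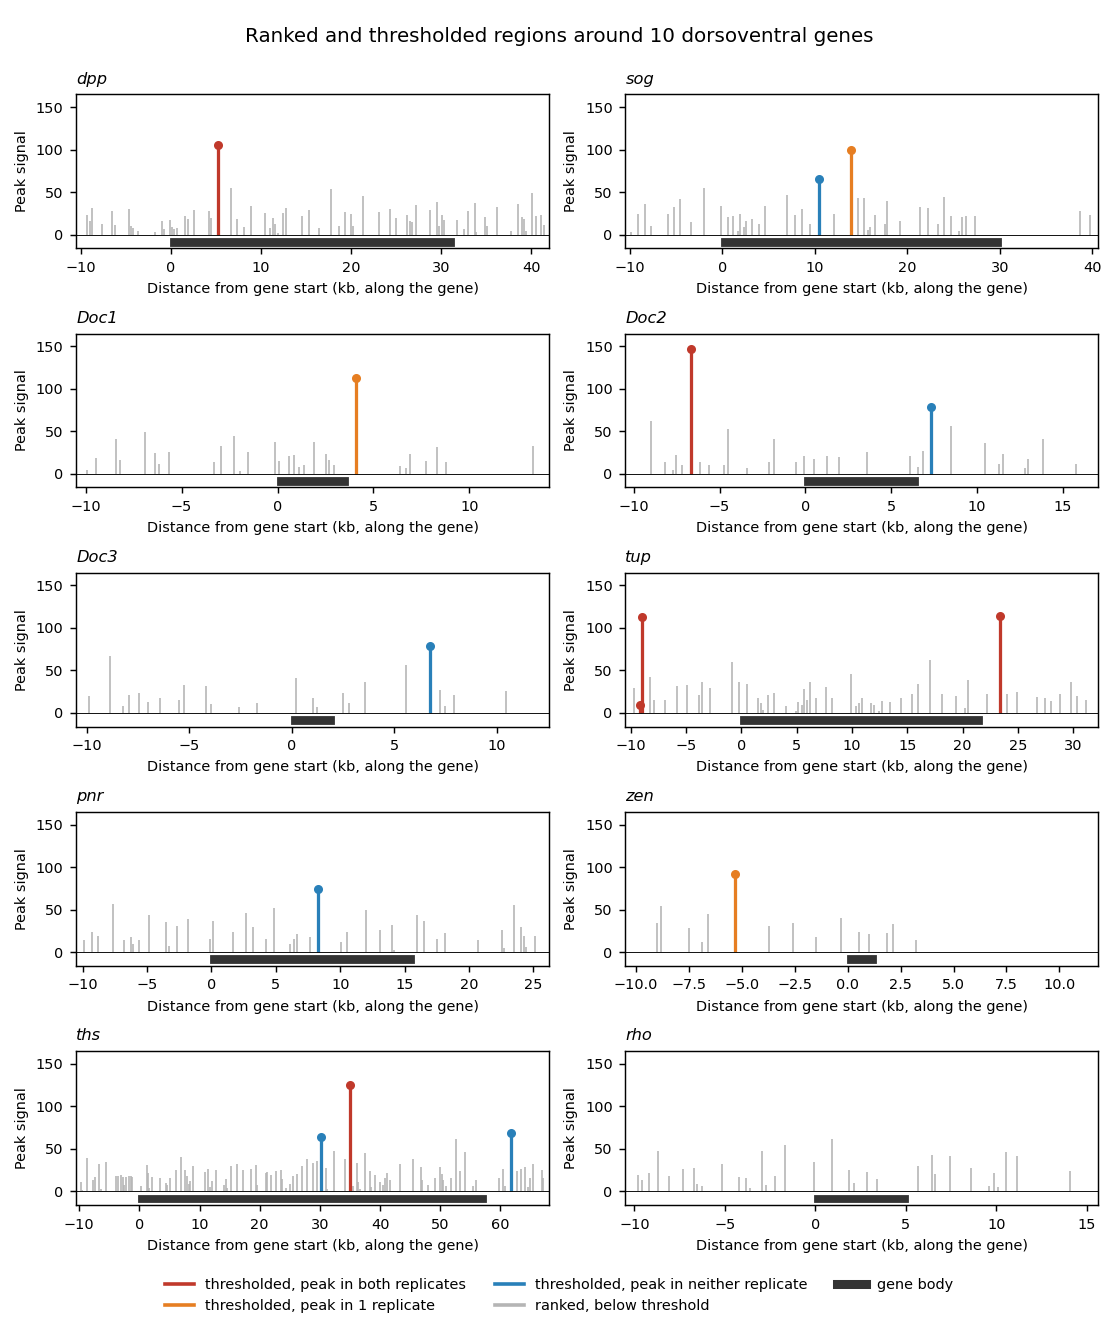
Each panel plots the signal of ranked regions (vertical axis, the authors' peak signal) against the distance of their summit from the gene start in kb, counted along the gene, for 1 of the 10 genes. Red, orange and blue lines are thresholded peaks that overlap a thresholded peak of both, 1 or neither replicate, grey lines are ranked regions below the threshold and the black bar is the gene body. The tallest lines are at Doc2, ths, tup and Doc1, and rho has no coloured line.

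**Figure D2:**
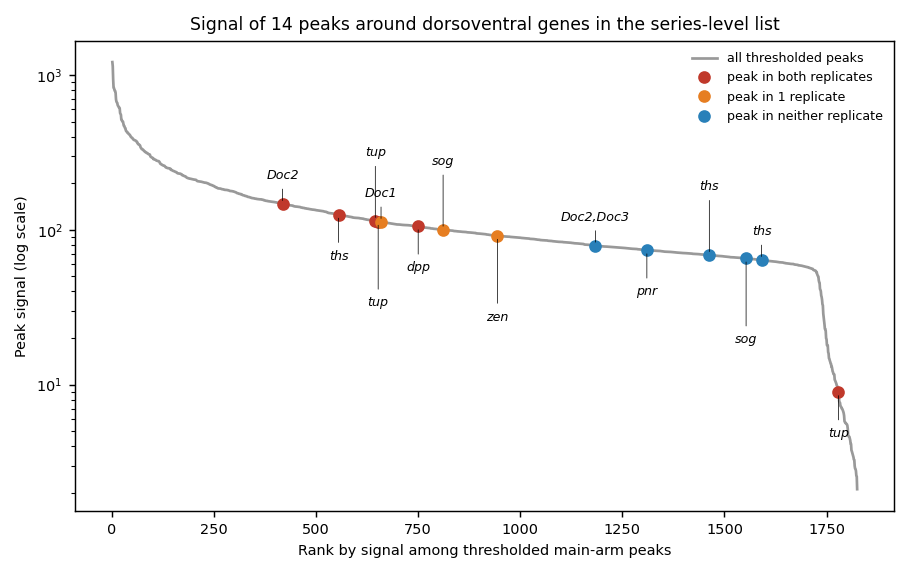
The signal of all 1825 thresholded main-arm peaks (vertical axis, log scale) is plotted against their rank (horizontal axis), with 14 member peaks as points coloured by replicate support. The members lie in the middle of the curve, from rank 418 to rank 1591, apart from a tup summit at rank 1779.

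At dpp, on arm 2L from 2428372 to 2459823, a single summit lay in the first intron of the longest transcript, 5264 bp downstream of the gene start (peak 2433458 to 2433813). Its signal was 105 in the series-level list, rank 750 of 1825. The overlapping region had a signal of 56.4 in replicate 1 and 56.5 in replicate 2, at ranks 553 and 912 of their ranked lists, and it passed the threshold in both. The other 71 ranked regions around dpp were weaker, the next at 54.5, and none was thresholded. No such region was as strong at the start sites of dpp themselves, where the best of its 4 TSS had a signal of 26.4.

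At sog, on the X chromosome from 15603283 to 15633434, both summits lay in the second intron of the longest transcript, 3511 bp apart. The stronger (15619330 to 15619685) had a signal of 99.997, rank 811. It reached 47.0 in replicate 1 and 46.3 in replicate 2, at ranks 785 and 1387 of the ranked lists, and was thresholded in replicate 1 only. The weaker (15622841 to 15623196) had a signal of 65.4 and was thresholded in neither replicate, with 24.98 in replicate 1 and 44.999 in replicate 2. The BMP ligand gene and its antagonist gene therefore each had an intronic peak, and only that of dpp passed the threshold in both replicates.

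The Doc cluster on arm 3L spans 39847 bp from Doc3 to Doc1. It had 3 summits in or just past it, 13981 and 19546 bp apart. The strongest of all 14 (9025742 to 9026097, signal 146, rank 418) lay in intergenic sequence 6674 bp upstream of Doc2, between Doc2 and Doc1. It had a signal of 73.9 in replicate 1 and 78.9 in replicate 2, with ranks 332 and 497 of the ranked lists, and passed the threshold in both. This is the summit with the Giant site TTACATAA, which starts 20 bp before the summit in the sequence shown. A peak of signal 112 (9045288 to 9045643, rank 659) lay 424 bp past the end of Doc1. Its summit was nearer to Argk2, an arginine kinase gene whose TSS is 1973 bp away. It was thresholded in replicate 2 only, with a signal of 69.0 there and 38.8 in replicate 1. The peak shared by Doc2 and Doc3 (9011761 to 9012116, signal 78.8, rank 1184) lay 747 bp past the end of Doc2 and 4690 bp past the end of Doc3, nearest to CG5194. Its signals of 38.0 in replicate 1 and 48.8 in replicate 2 passed the threshold in neither. The 3 genes of the cluster thus differed in support, and the peak between Doc2 and Doc1 alone was found by both replicates.

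At tup, on arm 2L from 18859507 to 18881261, there were peaks on both sides of the gene. The downstream peak (18857708 to 18858063, signal 114, rank 645) lay 1621 bp past the gene end and 207 bp from the TSS of CG10602, so it is a promoter peak of that neighbour. Its signal was 42.5 in replicate 1 and 72.4 in replicate 2. The upstream peak (18890075 to 18890430, signal 113, rank 652) lay in intergenic sequence 8992 bp from the TSS of tup, the nearest one, with 39.1 in replicate 1 and 67.9 in replicate 2. Both peaks passed the threshold in both replicates. The third summit, 202 bp further upstream, had a signal of 8.96 (rank 1779), and both replicates showed 1 region across the pair. Such weak summits lay beside stronger ones in general, since 76 of the 77 thresholded main-arm peaks with a signal under 20 were within 300 bp of a stronger summit. With this pair taken as 1 site, the genes had 13 sites, 5 of them in both replicates.

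At pnr, on arm 3R from 16026079 to 16041796, the summit lay 247 bp from an internal TSS of the gene, in the first intron of its longest transcript (peak 16034161 to 16034516, signal 73.8, rank 1310). Replicate 1 had a signal of 31.4 there and replicate 2 had 41.6, both below their thresholds. Of the 10 members, pnr alone had a thresholded summit within 500 bp of its own TSS. The list held 776 promoter peaks for 13945 protein-coding genes. The share of all genes with such a summit was not counted, so the members' count is a description only. At zen, also on 3R (6752864 to 6754194), the only peak (6759342 to 6759697, signal 91.6, rank 944) lay 5326 bp upstream of the gene and 54 bp from the TSS of bcd, which encodes the maternal anterior determinant Bicoid. It was thresholded in replicate 1, with a signal of 41.1 at rank 980 of the ranked list, but in replicate 2 it reached only 30.7, at rank 6255, the widest gap in rank among the members. It was also absent from the conservative list, as was 1 of the ths peaks described below. The count for zen therefore rests on a promoter peak of an anterior-posterior gene in the same gene complex.

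ths, on arm 2R from 11756817 to 11814424, is the longest member and had the most ranked regions, 108, of which 3 were thresholded. The strongest peak (11791694 to 11792049, signal 125, rank 555) lay in the second intron of the longest transcript, 1506 bp from an internal TSS of ths. It passed the threshold in both replicates, with a signal of 67.4 in replicate 1 and 64.5 in replicate 2. This summit also had the Giant site within 1 mismatch and CAGTGTA within 100 bp. The other peaks, a second one in that intron (signal 63.7) and one 4110 bp past the gene end (signal 68.5), were thresholded in neither replicate. Thus ths, like dpp, had 1 intronic peak that both replicates found.

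No thresholded peak of any list lay in the window of rho, on arm 3L from 1463811 to 1468944. Its strongest ranked region was intronic, 913 bp from the TSS, with a signal of 60.9 at rank 2206 of 145186 main-arm regions. The signal was 20.6 in replicate 1 and 31.3 in replicate 2. Its −log10 IDR was 1.67, and in the thresholded list this value is at least 2. IDR, the irreproducible discovery rate, is low where a region ranks both high and alike in a pair of peak sets. The window mattered here. A peak of signal 124 in an intron of the neighbouring gene stet, thresholded in both replicates, lay 10511 bp from rho and so just outside, while the farthest summit inside a window lay 9194 bp from tup.

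The replicates were set side by side by rank. Of the 14 peaks, 6 (42.9%) overlapped a thresholded peak of both replicates, 2 of replicate 1 only, 1 of replicate 2 only and 5 of neither. Over all 1825 peaks, 41.2% overlapped both and 26.1% neither. A peak of the conservative list overlapped 12 of the 14 (85.7%), against 78.1% of all peaks. The exceptions were the zen peak and the ths peak past the gene end, so most member peaks without replicate support were in that list. Apart from the low tup summit, the members ran from 63.7 to 146 in signal, with 5 of 13 in both replicates and 5 in neither. Of all 1174 peaks in that range of signal, 27.2% overlapped both and 28.2% neither. These shares were not tested. The 8 strongest member peaks all overlapped a peak of at least 1 replicate, and the 5 weaker ones, apart from the low tup summit, overlapped none. The series-level signal and the replicate lists come from the same 2 libraries, so this order is not an independent result. Support in both replicates did not follow it strictly. The Doc1 peak (112) overlapped a peak of 1 replicate and the weaker dpp peak (105) overlapped both. All 14 overlapped a region of both replicates' full ranked lists, within the top 3.87% in replicate 1 and the top 4.92% in replicate 2. Over all 1825 peaks, 85.1% lay within the top 5% of both. That limit lies just above the members' own 4.92%, so setting the members beside this share is no test. The members' median ranks were 1064 in replicate 1 and 1065 in replicate 2. Over all peaks with such a rank they were 957 and 934, which is nearer the top.

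**Figure D3:**
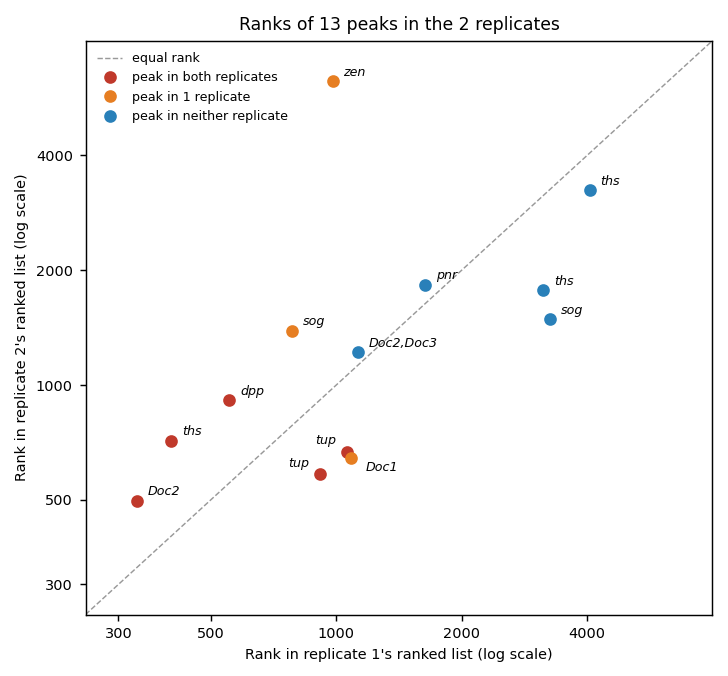
The rank of 13 member peaks in replicate 2's ranked list (vertical axis, log scale) is plotted against their rank in replicate 1's (horizontal axis, log scale), with rank 1 the highest signal and the low tup summit left out. Points near the dashed line rank alike. The strongest peaks of Doc2, ths, dpp, tup and Doc1 lie towards the lower left, and the other peaks of Doc2 and ths lie farther up and right. The zen peak lies far above the line, at ranks 980 and 6255.

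By annotation, 3 of the 14 summits (21.4%) were at promoters, defined as within 500 bp of a protein-coding TSS, 5 (35.7%) in introns and 6 (42.9%) in intergenic sequence. Over all 1825 peaks the shares were 42.5%, 34.8% and 17.4%. The 3 promoters were those of CG10602, bcd and pnr. Every member peak had a width of 356 bp, the largest in the list and that of 89.8% of all peaks. The GC content within 100 bp of the summit ran from 33.3% to 56.7% with a median of 37.8%, against a median of 36.8% over all peaks. The shares of 14 peaks are descriptions and were not tested.

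Start sites were examined in the full ranked list. Each of the 10 genes had a ranked region within 500 bp of its own TSS, as did 77.3% of all protein-coding genes. The strongest such region had a signal of 73.8 at pnr, 46.5 at sog, 40.7 at Doc3, 40.5 at zen, 37.2 at Doc1, 36.4 at tup, 34.6 at rho, 26.4 at dpp, 21.3 at Doc2 and 6.72 at ths. The median over all genes with such a region was 29.0, so 7 members were above it and dpp, Doc2 and ths below. The strongest region anywhere in the window was above the median of all genes (55.5) at all 10. A maximum rises with the length searched, and the members' windows were longer than those of all genes, so this median is not for windows of equal length. The genes with the strongest peaks of all, Doc2 and ths, were those with the weakest regions at their start sites.

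**Figure D4:**
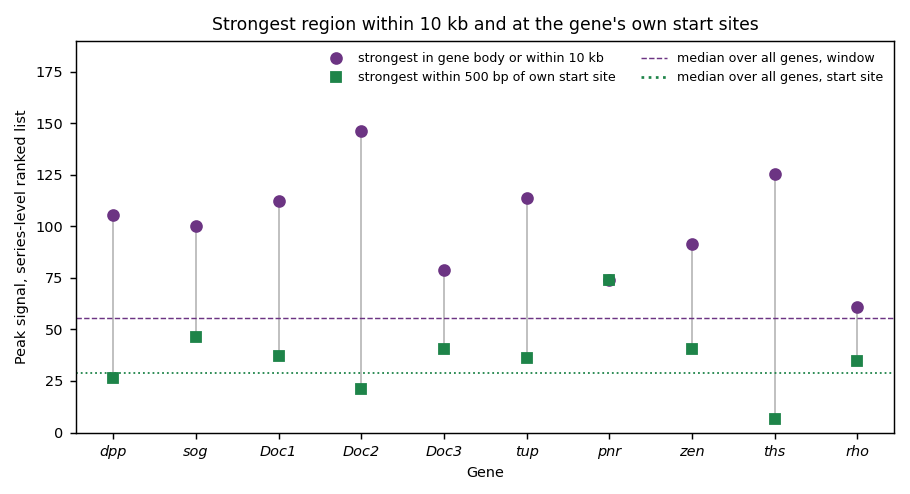
For each gene (horizontal axis) the purple point is the signal of the strongest ranked region in the body or within 10 kb and the green square that of the strongest region within 500 bp of an own start site (vertical axis, series-level ranked list). The dashed and dotted lines are the medians of both measures, each over the protein-coding genes that have such a region. Point and square coincide at pnr and lie farthest apart at Doc2 (146 and 21.3) and ths (125 and 6.72).

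The windows were not dense in ranked regions. They held 448 regions in all, with a median of 12.6 per 10000 bp, against 12.4 over all protein-coding genes. The density was highest at dpp (13.99 per 10000 bp) and ths (13.92) and lowest at zen (7.03) and sog (8.97). The median signal of the ranked regions was highest around zen, at 31.0, which was above that of 97.4% of genes. It was lowest around ths, at 18.3, where 28.8% of genes were lower.

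Fixed motifs were sought within 100 bp of each summit on both strands. TTACGTAA, the Giant site, was found with up to 1 mismatch at 2 of the 14 summits, those of Doc2 and ths that both replicates found, and at 9.32% of all 1825. CAGTGTA was found at 3 (Doc2, ths and the upstream tup peak), against 7.95% of all, and ACAGTGG at 1 (pnr), against 10.3%. The letters CAGTG alone, chosen after the sequences were seen, were found at 9 of 14, against 50.7% of all peaks. The Tinman site CACTTGA was at 2 (dpp and upstream tup), against 3.78%, the GATA site GATAAG at 1 (upstream tup), against 9.32%, and the Snail site CAGGTG at 1 (the downstream ths peak), against 6.52%. The Dorsal motif was at none of the 14 and at 0.329% of all peaks. There was likewise no match to the Zelda site CAGGTAG (1.10% of all), the Brinker site GGCGCCA (3.34%) or the Twist site CACATG (8.88%). The Mad site GCCGNCGC (2.25% of all) was also absent. So was the STAT site TTCNNNGAA (5.15%). The same held for the GAGA factor site GAGAGAG (3.95%), the DREF site TATCGATA (2.63%) and the T-box site AGGTGTGA (0.438%). CAGTG lies within CAGTGTA and ACAGTGG, so these counts overlap.

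The other genes of the pathway were counted by the same rule. Of 43 listed genes, 18 (41.9%) had a thresholded summit in the window, against the 34.9% of all genes given above. Their windows were longer than most, with a median of 28898 bp against 22166 bp, so the 34.9% is not for windows of equal length. Among the 1780 genes with a window at least as long as the members' median, the share was 45.8%. Of these 18, 5 were themselves nearest to their strongest peak. Counting genes with the TSS nearest to any summit, at most 10000 bp away, 7 of the 18 remained. By that rule 1282 of the 4866 remained over all protein-coding genes. In the maternal Toll pathway, which carries the ventral signal to Dorsal, 3 of 11 genes had a summit in the window. The strongest were at cact, the Dorsal inhibitor, at its promoter (127), and at dl, nearest to Dif (127). That at tub, an adaptor of the Toll receptor, was nearest to CG34112 (124). Among mesoderm and neuroectoderm targets of Dorsal there were 2 of 9, brk (107), a repressor of BMP targets, and twi (66.2), a mesoderm determinant, both nearest to other genes. The genes sna, sim, vnd, ind, vn, pyr and htl, the FGF receptor gene for ths, had none.

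In the Dpp pathway, 7 of 13 genes had a summit. The signal mediator genes Mad (236, intronic) and Med (331, at the promoter of Mnat9) and the repressor gene shn (178, intronic, the strongest of 5) had peaks in both replicates. The others were at the ligand gene gbb (553, at the promoter of eIF6) and at cv (170, nearest to CG3149). There were also peaks at the receptor gene put (80.2, at the promoter of CG14853) and the inhibitor gene Dad (89.2, nearest to Ns1). The ligand gene scw, the proteases tld and tok, tsg, and the receptor genes tkv and sax had none. In the dorsal ectoderm and amnioserosa group, 6 of 10 had a summit. The strongest peaks at C15 (376, nearest to sp3) and emc (128, nearest to hng3) were closest to the TSS of another gene. So were those at Ance (242, at the promoter of Smg5) and bs (82.5, at the promoter of CG44812). The peaks at ush (103, intronic) and peb (85.6, also known as hindsight) were nearest to these genes themselves. The genes zen2, srp, eg and Egfr had none. These strongest peaks overlapped thresholded peaks of both replicates at gbb, cv, Mad, Med, shn, ush, C15, Ance, emc, bs and tub.

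**Figure D5:**
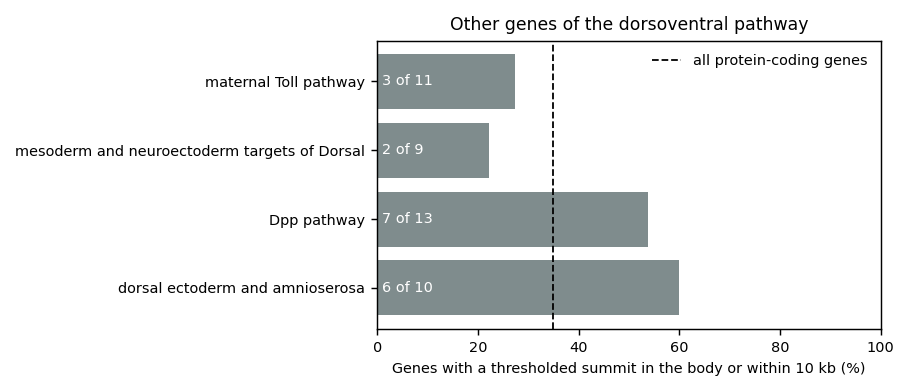
Bars give the percentage of genes with a thresholded summit in the body or within 10 kb (horizontal axis) for 4 groups of other dorsoventral pathway genes (vertical axis), with the counts inside the bars. The dashed line is the share of all protein-coding genes, 34.9%. The 2 lower bars, the Dpp pathway (7 of 13) and the dorsal ectoderm and amnioserosa group (6 of 10), pass the line, and these differences were not tested. The line is not matched to the groups in window length.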

How the data were processed

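Anti-GFP ChIP-seq peak lists of 2 replicates of 1 group were used. Per the labels and the notes beside each sample, the authors mapped to dm6, used control reads, and ranked and thresholded the regions by IDR. Aligner, caller and depth: not given in the sources used here. Signal is as the authors deposited it, with no stated scaling. The −log10 values the authors deposited are of the global IDR. The columns of paired sub-lists in the series-level ranked files (4 of signal) were not used. Peaks on 6 arms were joined in Python 3.11.15 (pandas 2.3.3) to Ensembl release 115 genes. Ranks are by signal. A replicate supports a peak when their intervals overlap by at least 1 bp. The functions that count, overlap and find motifs were checked on planted summits and sites. All members, and every pathway gene with a summit, are named. Members, gene lists and motifs were chosen with earlier results of these data known. Alternatives were other windows, lists, thresholds, overlaps, promoter distances and motif windows. Distances, counts and shares are descriptions; no p was computed.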

Additional observations from a re-analysis of the deposited data

How the results depend on the processing

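Of 40 alternative values, 28 stayed within 1.5 times the main count (for the signal, within 1 SD over the peaks). The number of members with a peak, 9, was 8 at 5000 bp and 10 at 20000 bp, where 24.0% and 50.1% of genes had one. It was 10 at an IDR of 0.05 (52.7% of genes) and 6 among peaks above the median signal (22.8%). The 2 single-replicate lists gave 5 to 6 members, 6 to 7 peaks and 12 to 15 other pathway genes, against 24.1% to 27.3% of all genes. The 14 member peaks became 8 with the nearest TSS, 7 above the median signal and 23 at an IDR of 0.05. The 18 other pathway genes became 7 with the nearest TSS (9.19% of all genes) and 30 at an IDR of 0.05 (52.7%). Peaks in both replicates went from 6 of 14 member peaks to 3 of 10 at 5000 bp, beside 41.2% of all peaks. Promoter peaks fell from 3 to 1 at 200 bp (30.2% of all peaks), and Giant sites from 2 to 1 within 50 bp (4.82%). CAGTG was within 50 bp of 2 summits, against 21.8% of all peaks. In each case fewer or more positions could pass by construction. No paired analysis was possible because there is only 1 group. The spread of a signal rests on 1 pair of replicate values, whose scaling is not stated.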

Other observations

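The window of ush, a cofactor of GATA factors that acts with pnr, held a region of higher signal than any member peak. It lay on 2L from 480937 to 481234, in an intron and nearest to cbt, with a signal of 882 at rank 4 of 145186 main-arm regions and a −log10 IDR of 5. Its signal was 375 in replicate 1 and 527 in replicate 2, at ranks 6 and 4 of their ranked lists. It was absent from the thresholded list, as were 2 weaker regions in the same window, with signals of 168 and 164. The omission was not particular to ush: of 1892 main-arm ranked regions with a −log10 IDR of at least 2, 67 were absent from the thresholded list, among them 1 of signal 34.9 in the window of tkv, a BMP receptor gene. No source used here gives the reason. No region around the 10 members was left out in this way.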
